A study of Saccharomyces cerevisiae with 6 samples.

Results

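The glycogen metabolism genes of budding yeast examined here are the 10 genes GSY1, GSY2, GLG1, GLG2, GLC3, GPH1, GDB1, PGM1, PGM2 and UGP1. They were chosen by name, with earlier results of these data known, as the enzymes that make glycogen, break it down or supply its precursor. Each was read through the probe set that the array annotation assigns to that gene alone, and all 10 were found among 5449 genes measured. Transcript levels came from anaerobic chemostats of Saccharomyces cerevisiae VTT C-10883, which are continuous cultures fed with fresh medium. The 3 cultures of the first group received no inhibitors, and the 3 cultures of the second had been switched to a feed with 5-hydroxymethylfurfural (HMF) and furfural, aldehydes that form when plant sugars break down. Neither aldehyde concentrations nor sampling times nor growth rates are given in the sources read, so a change in growth rate and a change made by the aldehydes cannot be told apart.

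Glycogen is the branched glucose polymer that yeast stores as a carbon reserve, typically when nutrients run low or growth slows. Phosphoglucomutase interconverts glucose-6-phosphate and glucose-1-phosphate, and UDP-glucose pyrophosphorylase turns glucose-1-phosphate into UDP-glucose. Glycogenin starts a chain on itself, glycogen synthase lengthens it and the branching enzyme adds branches. Glycogen phosphorylase releases glucose-1-phosphate again, and the debranching enzyme removes the branch stubs where phosphorylase stops. Several steps have a pair of isoenzyme genes. Many genes of the pathway are known to respond to the stress factors Msn2 and Msn4 and to be held down by protein kinase A when glucose signalling is strong.

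With HMF and furfural, 7 of the 10 genes fell, 1 rose and 2 were not called. The falls covered branching (GLC3), breakdown (GPH1 and GDB1), both glycogenin genes, the synthase gene GSY2 and the phosphoglucomutase gene PGM2. GLG2 fell by 0.41 on the log2 scale and PGM2 fell by 1.15, with the others between them. PGM1, which encodes the other phosphoglucomutase, rose by 0.48. UGP1 and the second synthase gene, GSY1, were not called. A gene is called here when its adjusted p is under 0.05 in limma, a linear model with moderated variances fitted to all 5449 genes, with Benjamini-Hochberg adjustment and 3 arrays in each group. Over all genes, 42.2% were called, 22.3% lower and 19.9% higher, against 70% lower and 10% higher for the glycogen genes. The median log2 fold change was -0.52 for the 10 genes and -0.01 for all genes. The ranges of both groups were separate for 8 of the 10, against 55.4% of all genes.

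**Figure D1:**
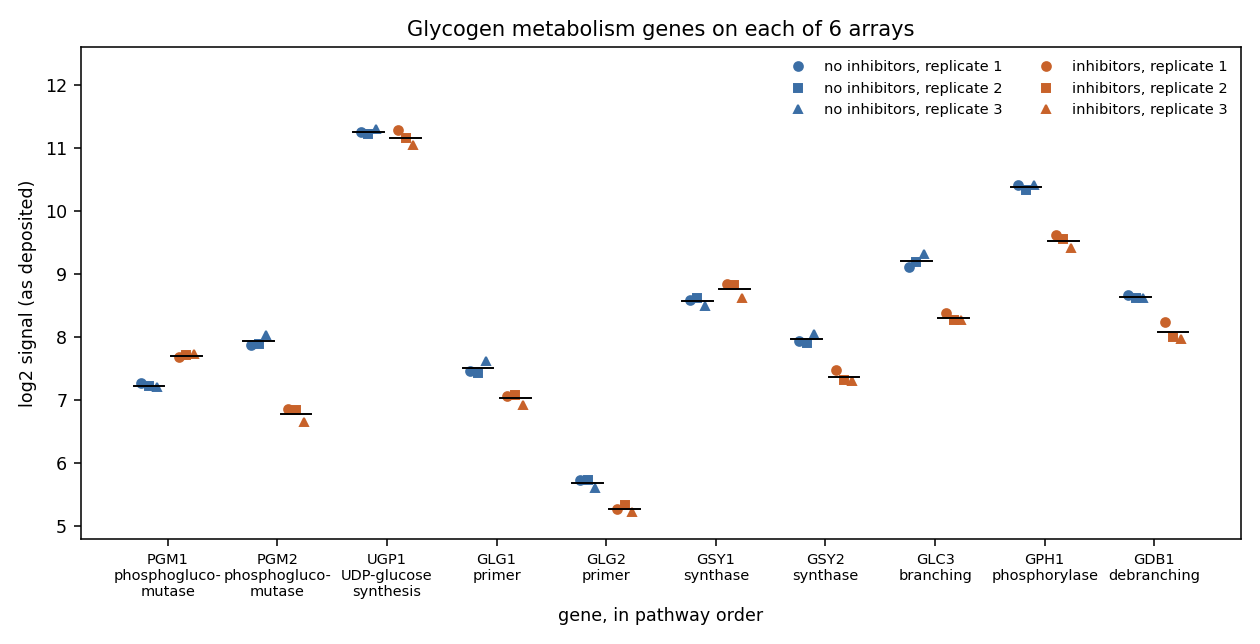
Deposited log2 signal of each glycogen gene (vertical axis) on each array, with no-inhibitor arrays in blue, inhibitor arrays in orange, marker shape for the replicate number and a black line at the group mean (n = 3). The groups are separate for 8 genes, overlap for UGP1, and meet for GSY1, where the lowest inhibitor array and the highest no-inhibitor array both read 8.63.

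All values are log2 signals, so a difference of 1 is a 2-fold difference, and signals of different genes are not set against each other because each probe set binds with its own strength. All 10 genes lay above background on all 6 arrays, as did 5346 of the 5449 genes measured. Background was the 95th percentile of the fission yeast probe sets that share the array. It was 2.22 on every array, just above the lowest signal of 2.21. None of the 10 was read by a probe set marked as able to cross-hybridize, and each had a single probe set. The median within-group SD of the 10 genes was 0.07 without inhibitors and 0.10 with them, against 0.05 in both groups over all genes. In the inhibitor group, replicate 3 lay below its group mean for 9 of the 10 genes (mean deviation -0.083) and replicate 1 above it for 8 (mean deviation 0.071). No-inhibitor arrays deviated by -0.021 to 0.025 on average. The labels call the cultures biological replicates, and 3 arrays in each group set the precision. Signals are relative to the other transcripts on an array, so the amount of RNA per cell was not measured.

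The phosphoglucomutase genes moved in opposite directions. PGM2 (YMR105C, probe set 1778907_at) encodes the major phosphoglucomutase. It read 7.88, 7.90 and 8.03 without inhibitors and 6.86, 6.85 and 6.65 with them. Every inhibitor array lay below every no-inhibitor array, with a gap of 1.02 between the groups. The mean fell by 1.15 (SE 0.07, 95% interval -1.33 to -0.96, adjusted p = 0.000558 in limma), a 2.21-fold fall. It was the largest fall among the 10 genes and the single one past 2-fold, as were 0.661% of all genes. Over the whole array 0.44% of genes fell further.

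PGM1 (YKL127W, probe set 1777971_at) encodes the minor phosphoglucomutase. It read 7.27, 7.22 and 7.21 without inhibitors and 7.68, 7.72 and 7.73 with them. The groups were separate, here with the inhibitor arrays on top, and the SD of 0.03 in each group was the smallest of the 10 genes among the inhibitor arrays. The rise was 0.48 (SE 0.03, 95% interval 0.41 to 0.55, adjusted p = 0.00048 in limma), or 1.39-fold, and 2.5% of all genes rose further. The log2 ratio of PGM2 to PGM1 within an array went from 0.70 (SD 0.11, n = 3) to -0.92 (SD 0.14, n = 3), a change of -1.62. The level of such a ratio depends on the probes, so its change alone is compared. The exact two-sided permutation test over the 6 arrays gave p = 0.1, the smallest p that 3 arrays against 3 allow, and an adjusted p of 0.125 over the 5 pairs of genes compared. The pair ratios were separate between groups for 4 of these 5 pairs, and none could pass the threshold in a design of this size. Among single genes 55.4% had separate groups, and no such share was computed for other gene pairs.

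UGP1 (YKL035W, probe set 1770744_at), whose enzyme makes the UDP-glucose used for glycogen, trehalose and wall glucan, was not called. Its arrays read 11.26, 11.22 and 11.31 without inhibitors and 11.29, 11.17 and 11.05 with them. The groups overlapped, with inhibitor replicate 1 inside the range of the other group. The log2 fold change was -0.09 (SE 0.06, adjusted p = 0.287 in limma), and its 95% interval of -0.25 to 0.07 leaves out a fall as large as any of the 7 that were called.

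**Figure D2:**
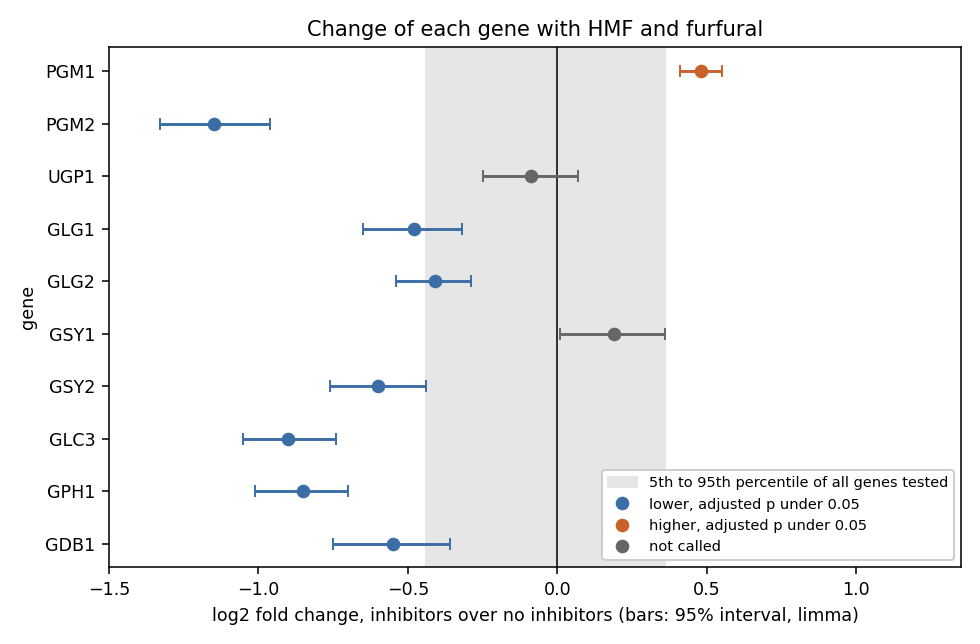
Log2 fold change of each glycogen gene, inhibitors over no inhibitors (horizontal axis), in pathway order, with 95% intervals from limma (n = 3 arrays in each group). The grey band spans the 5th to 95th percentile of all genes, -0.44 to 0.36, and 6 of the 7 falls and the rise of PGM1 lie outside it, while GLG2 at -0.41 lies just inside.

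Both glycogenin genes fell by similar amounts. GLG1 (YKR058W, probe set 1776644_at) read 7.47, 7.44 and 7.62 without inhibitors and 7.07, 7.08 and 6.93 with them. GLG2 (YJL137C, probe set 1772227_at), whose product is the other self-glucosylating primer protein, read 5.74, 5.73 and 5.61 and then 5.27, 5.34 and 5.23. Neither gene's groups overlapped, with gaps of 0.36 and 0.26. GLG1 fell by 0.48 (SE 0.06, adjusted p = 0.00382 in limma) and GLG2 by 0.41 (SE 0.05, adjusted p = 0.00281 in limma). The log2 ratio of GLG2 to GLG1 changed by 0.07, less than its SD of 0.17 among no-inhibitor arrays, and its ranges overlapped (exact permutation p = 0.7, adjusted p = 0.7). Without no-inhibitor replicate 3 that change was -0.02. These data do not order the falls of the glycogenin genes.

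The synthase genes did not move together. GSY2 (YLR258W, probe set 1779105_at) encodes the predominant synthase, the form that accumulates as cells leave rapid growth. It read 7.94, 7.91 and 8.06 without inhibitors and 7.48, 7.33 and 7.30 with them. The groups were separate by 0.43. The mean fell by 0.60 (SE 0.06, 95% interval -0.76 to -0.44, adjusted p = 0.00206 in limma), or 1.51-fold.

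GSY1 (YFR015C, probe set 1773444_at) encodes the minor synthase. It read 8.60, 8.63 and 8.50 without inhibitors and 8.84, 8.83 and 8.63 with them. Inhibitor replicates 1 and 2 lay above all no-inhibitor arrays, and replicate 3 lay level with the highest of them. The log2 fold change of 0.19 was not called (SE 0.07, 95% interval 0.01 to 0.36, adjusted p = 0.0802 in limma). Without inhibitor replicate 3 it was 0.26 and called (adjusted p = 0.021), and it was also called with genes near background left out (adjusted p = 0.0453) and with an intensity trend and robust prior (adjusted p = 0.0404). Over all alternatives its adjusted p ran up to 0.196. The log2 fold change ran from 0.15 to 0.26 over the alternatives that could change it. The log2 ratio of GSY2 to GSY1 within an array ran from -0.73 to -0.44 without inhibitors and from -1.49 to -1.33 with them. It changed by -0.79, and the ranges did not overlap (exact permutation p = 0.1, the smallest possible, adjusted p = 0.125).

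**Figure D3:**
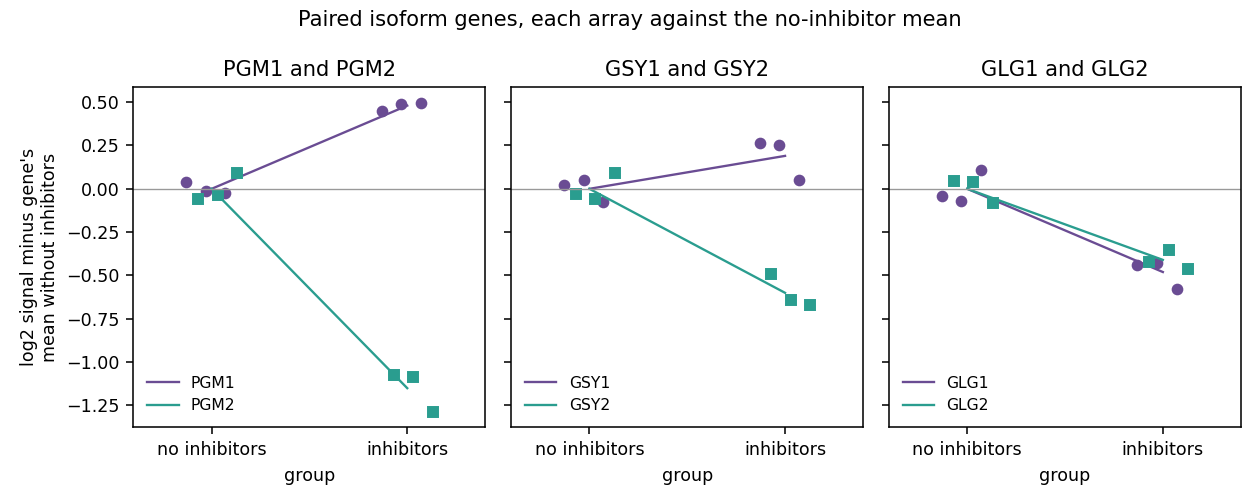
Log2 signal of each isoform gene on each array minus that gene's mean without inhibitors (vertical axis), for the phosphoglucomutase, synthase and glycogenin pairs, with lines joining the group means (n = 3). The log2 ratio of PGM2 to PGM1 changes by -1.62 and that of GSY2 to GSY1 by -0.79, while the GLG1 and GLG2 points with inhibitors lie close together.

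GLC3 (YEL011W, probe set 1772051_at), the gene of the glycogen branching enzyme, fell most among the genes that act on the polymer itself. It read 9.11, 9.20 and 9.32 without inhibitors and 8.38, 8.27 and 8.28 with them, separate by 0.73. The mean fell by 0.90 (SE 0.06, 95% interval -1.05 to -0.74, adjusted p = 0.000639 in limma), or 1.87-fold, and 1.03% of all genes fell further. The log2 ratio of GLC3 to GSY2 went from 1.24 (SD 0.06, n = 3) to 0.94 (SD 0.04, n = 3). Its change of -0.30 was larger than the spread within either group (exact permutation p = 0.1, adjusted p = 0.125). The ratio was lower on every inhibitor array than on any no-inhibitor array.

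The genes of breakdown fell as well. GPH1 (YPR160W, probe set 1779850_at), the glycogen phosphorylase gene, read 10.42, 10.33 and 10.41 without inhibitors and 9.62, 9.56 and 9.42 with them. GDB1 (YPR184W, probe set 1769968_at), the debranching enzyme gene, read 8.67, 8.62 and 8.62 and then 8.25, 8.01 and 7.98. The groups were separate for both, by 0.71 and 0.37, and for GDB1 inhibitor replicate 1 stood above the other two. GPH1 fell by 0.85 (SE 0.06, 95% interval -1.01 to -0.70, adjusted p = 0.000717 in limma), or 1.81-fold. GDB1 fell by 0.55 (SE 0.08, 95% interval -0.75 to -0.36, adjusted p = 0.00428 in limma), or 1.47-fold. The log2 ratio of GPH1 to GDB1 changed by -0.30, from 1.71 to 1.79 without inhibitors down to 1.37 to 1.55 with them (exact permutation p = 0.1, adjusted p = 0.125). Among the 7 falls were genes of synthesis, namely GSY2, GLC3, GLG1 and GLG2, and both genes of breakdown.

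Ordered by their change, the falls ran from PGM2 through GLC3, GPH1, GSY2, GDB1 and GLG1 to GLG2. Each gene's 95% interval overlapped that of the next in this order, and those of GLC3 and GPH1 overlapped nearly in full. Each of the 7 falls kept its call when any 1 array was left out, with the highest adjusted p, 0.0203, for GDB1. The rise of PGM1 kept it too (adjusted p at most 0.00417).

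Transcripts of the regulators of the glycogen enzymes, listed together with the glucoamylase gene SGA1, moved both ways. Of these 18 genes, 7 fell, 5 rose and 6 were not called, with a median log2 fold change of -0.07. The shares were 38.9% lower and 27.8% higher, against 22.3% and 19.9% of all genes. The excess of falls was not stable. Their count was 2 to 5 with any 1 array left out, and 5 only without inhibitor replicate 1, while the count of rises stayed at 5. On all 6 arrays without moderated variances the falls numbered 2 as well. With 1 array left out the falls over all genes also dropped, from 1214 to between 868 and 1117. SGA1, which encodes a sporulation glucoamylase that breaks glycogen down and is no regulator, fell by 0.85 from a low signal of 4.76 (adjusted p = 0.00267 in limma). PCL10 rose by 0.52 (adjusted p = 0.00663 in limma). Its product is a cyclin that directs the kinase Pho85 to phosphorylate and inhibit glycogen synthase. The other Pho85 cyclin genes of the list did not move one way. PCL6 rose by 0.17 and PCL8 fell by 0.17 (adjusted p = 0.0121 and 0.0407 in limma), and PCL7 was not called. GLC8, a modulator of the phosphatase Glc7 that acts on glycogen synthase, rose by 0.26 (adjusted p = 0.00133 in limma). PIG1, a gene related to the Glc7 targeting subunits, fell by 0.27 (adjusted p = 0.0431 in limma) and lost its call whichever array was left out (adjusted p = 0.062 to 0.113). For the phosphatase gene GLC7 itself the log2 fold change was 0.04 (adjusted p = 0.524 in limma). For the kinase gene SNF1, needed for glycogen storage, it was -0.04 (adjusted p = 0.363 in limma).

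Trehalose, the other storage carbohydrate of yeast, is also made from UDP-glucose. Of 7 trehalose genes, 6 fell, none rose and 1 was not called, with a median log2 fold change of -0.37. The share that fell was 85.7%, against 22.3% of all genes. TSL1, which encodes a subunit of the synthase complex, fell by 0.97 (adjusted p = 0.00324 in limma), and ATH1, the acid trehalase gene, fell by 0.56 (adjusted p = 0.00641 in limma). The synthase gene TPS1 and the phosphatase gene TPS2 fell by 0.43 and 0.37 (adjusted p = 0.000717 and 0.00826 in limma). The medians of the trehalose and glycogen genes stand side by side without a test of their difference.

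Of 10 genes around glucose-6-phosphate and glucose-1-phosphate, 1 fell and 2 rose, with a median of -0.04. These shares, 10% lower and 20% higher, compare with 22.3% and 19.9% of all genes. ZWF1, which takes glucose-6-phosphate into the pentose phosphate pathway, fell by 0.31 (adjusted p = 0.00762 in limma). The hexokinase gene HXK2, whose enzyme makes glucose-6-phosphate, rose by 0.26 (adjusted p = 0.00373 in limma). YHL012W, a gene with similarity to UGP1, also rose by 0.26 (adjusted p = 0.0034 in limma), but from 2.26 to 2.52, close to the background of 2.22. PRM15, a phosphoglucomutase family gene also known as PGM3, had a log2 fold change of 0.22 and was not called (adjusted p = 0.132 in limma).

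A further list held 8 genes of other glucosyltransferases and of glucan synthesis and assembly, of which SKN1 and KRE6 are not known to use UDP-glucose. Of the 8, 5 fell, 1 rose and 2 were not called, with a median of -0.22 (62.5% lower and 12.5% higher, against 22.3% and 19.9% of all genes). The count of falls was not stable. It was 1 or 2 on leaving out any 1 of the no-inhibitor arrays or inhibitor replicate 2 or 3, and 6 without inhibitor replicate 1. On all 6 arrays without moderated variances it was 1. The single rise was lost whichever array was left out. ATG26, the sterol glucosyltransferase gene, fell by 0.27 (adjusted p = 0.000889 in limma, 0.00367 to 0.00646 with 1 array left out). FKS3, SKN1 and KRE5, genes of the glucan synthase and glucan assembly families, had log2 fold changes of -0.35, -0.34 and -0.25 (adjusted p = 0.033, 0.0269 and 0.0344 in limma). With 1 array left out their adjusted p reached 0.0881, 0.0815 and 0.0994. Under quantile normalization FKS3, a gene of low signal, had a log2 fold change of -0.20 and was not called (adjusted p = 0.0897).

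Regulators of the stress response and of protein kinase A gave 6 falls and 1 rise among 15 measured, with a median of -0.08. The shares were 40% lower and 6.67% higher, against 22.3% and 19.9% of all genes. The stress factor gene MSN4 fell by 0.55 (adjusted p = 0.00281 in limma), while for its partner MSN2 the log2 fold change was -0.03 (adjusted p = 0.677 in limma). CYR1, the adenylate cyclase gene, fell by 0.26 (adjusted p = 0.0159 in limma), and was not called once replicate 3 of either group was left out (adjusted p = 0.0531 without the no-inhibitor array and 0.0535 without the inhibitor array). RIM15, a kinase gene of entry into quiescence, fell by 0.26 (adjusted p = 0.00893 in limma). RAS1 rose by 0.24 (adjusted p = 0.0187 in limma), but was not called on leaving out no-inhibitor replicate 2 or inhibitor replicate 2 or 3 (adjusted p = 0.0506, 0.0522 and 0.0519). Without inhibitor replicate 3 the falls numbered 3 of 15, close to the share of all genes. The rises numbered 2 without no-inhibitor replicate 1 and 0 without no-inhibitor replicate 2 or inhibitor replicate 2. Transcript levels of these regulators do not give the activity of their proteins.

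**Figure D4:**
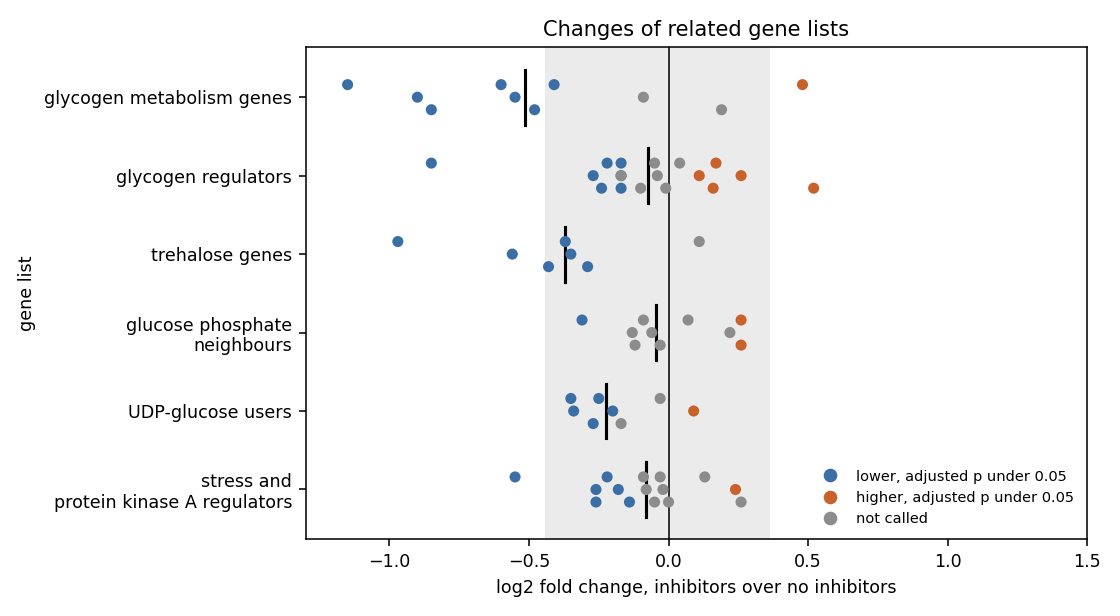
Log2 fold change, inhibitors over no inhibitors (horizontal axis), of every measured gene of the glycogen genes and of 5 related lists, each dot a gene, coloured by its limma call, with a black bar at the list's median and a grey band from -0.44 to 0.36, the 5th to 95th percentile of all genes. The medians are -0.52 for the glycogen genes, -0.37 for trehalose genes, -0.22 for the list labelled UDP-glucose users, which also holds glucan assembly genes, and -0.04 to -0.08 for the other 3 lists.

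The genes next to the 8 called glycogen genes on the chromosomes gave few calls, where 42.2% of all genes were called. By gene order in the RefSeq annotation of the reference strain, 14 adjacent genes of the 8 called glycogen genes were measured, of which 2 were called in the same direction as their neighbour, 1 in the opposite direction and 11 not at all. The same direction was seen for YLR257W beside GSY2, which fell by 0.85 (adjusted p = 0.000355 in limma), and for UBC8 beside GLC3, which fell by 0.48 (adjusted p = 0.00344 in limma). DPM1 beside GDB1 rose by 0.16 (adjusted p = 0.00382 in limma). Outside these 14, TUL1 beside UGP1, itself not called, fell by 0.26 (adjusted p = 0.0031 in limma). PGM1 lies beside YPK1 and PGM2 beside YPK2, a related pair of kinase genes, and neither kinase gene was called (log2 fold changes of -0.07 and -0.13, adjusted p = 0.0824 and 0.424 in limma).

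The genes with the profiles most like GSY2, GPH1 and PGM2 were not among the glycogen genes examined here. Likeness was the distance between log2 signals on the 6 arrays after each gene's mean was subtracted, so that 0 marks equal profiles. Nearest to GSY2 were RGC1, a regulator of the glycerol channel, at 0.091, AAD10, an aryl-alcohol dehydrogenase gene, at 0.101, and FET5, a multicopper oxidase gene, at 0.106. Nearest to GPH1 were FIG2, a mating adhesin gene, at 0.114, and YRO2, a membrane protein gene related to HSP30, and MCH4, a transporter family gene, each at 0.12. Nearest to PGM2 were YER053C-A at 0.187, the peptide transporter gene OPT1 at 0.192 and the vacuolar calcium exchanger gene VCX1 at 0.206. The log2 fold changes of these 9 genes ran from -0.56 for AAD10 to -1.14 for YER053C-A. Choosing genes by likeness keeps their changes close to that of the glycogen gene they were matched to, so this range is no separate result.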

How the data were processed

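Biotin-labelled total RNA from 6 cultures, 3 in each group by their titles, was read on Affymetrix arrays. The deposited table holds log2 signals made by the authors with GCRMA, and limma is also named, per the submitters' processing notes, without versions. GCRMA corrects background and normalizes between arrays, and low signals gather at a floor (2.21), where changes are understated. No further normalization was applied.

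Of 10762 probe sets, 7244 had 1 annotated gene, 1 had several and 3517 were unlisted and not used. Names came from the RefSeq table of assembly R64 (5498 S. cerevisiae and 1746 fission yeast probe sets). For 47 genes with over 1 probe set the highest mean was used. Groups were compared in limma 3.58.1 (R 4.3.3), two-sided, with group as the single factor and Benjamini-Hochberg adjustment over 5449 genes. The fit was tested on simulated data. Exact permutation tests compared within-array ratios of 5 gene pairs.

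The members and lists were chosen with earlier results of these data known. Named genes were the 10 members, from each list the called genes with the largest changes (4 at most), and the 3 nearest profiles of 3 members. PRM15, GLC7, SNF1, MSN2, PCL6, PCL7 and PCL8 and the adjacent genes were named outside that rule, after their values were seen. One listed gene is not reported here, and promoter and protein sequences were not analysed here. Alternatives covered normalization, an intensity filter, moderation, weights for arrays, a block for the replicate number, probe sets, the threshold and each replicate left out. Figures were drawn with matplotlib 3.10.9.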

Additional observations from a re-analysis of the deposited data

How the results depend on the processing

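The 7 falls and the rise of PGM1 kept their calls under each of 15 alternatives. Direction was open to change only under quantile normalization, with array weights and with 1 array left out. All 10 glycogen genes kept their direction in these. The other alternatives left each glycogen gene's fold change as it was, so they bear on calls alone. With any 1 array left out there were 7 falls each time and 1 to 2 rises. The second rise was GSY1, which gave 2 rises with the intensity filter, with trend and robust moderation, with the replicate number as a block (adjusted p = 0.0368) and without inhibitor replicate 3. Same-numbered arrays did not deviate together (r = -0.22, -0.25 and -0.20 across genes for replicates 1, 2 and 3). With 3 arrays in each group this cannot settle whether same-numbered cultures were paired, and the titles do not say. Among genes of the related lists, the block also ended the calls of PIG1, KRE5, CYR1, RIM15 and RAS1 (adjusted p = 0.127, 0.0829, 0.0558, 0.0525 and 0.0799). Leaving out 1 array changed the pair ratios little: -1.68 to -1.55 for PGM2 over PGM1, -0.85 to -0.70 for GSY2 over GSY1, -0.35 to -0.26 for GPH1 over GDB1, -0.34 to -0.28 for GLC3 over GSY2 and -0.02 to 0.12 for GLG2 over GLG1, which turned sign without no-inhibitor replicate 3. Over all genes, 582 were lower and 608 higher at an adjusted p under 0.01, since that threshold is stricter. With 1 array left out 868 to 1117 were lower and 855 to 1023 higher. The number of arrays limits what the exact tests can show.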
